A study of Rattus norvegicus with 12 samples.

Results

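Circular DNA of untreated rat back skin was described from 4 control libraries of a Circle-seq series, a method that digests linear DNA and sequences the circles left behind. The members were all entries of the deposited lists with at least 1 supporting read, a read that spans or straddles the junction of a circle, in any of these 4 libraries. They numbered 25717 of 228510 entries, or 11.3%, of which 25632 were extrachromosomal circular DNA (eccDNA) and 85 were longer circles listed apart as ecDNA. No irradiated library entered this choice.

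The series holds 12 libraries of back skin of wild-type Sprague Dawley (SD) rats kept under specific-pathogen-free conditions. The control group had no radiation, and the other groups had 2 or 4 weekly fractions of 5 Gy to the back skin, given as an electron beam, with skin taken on day 7 after these fractions (5 Gy x2 and 5 Gy x4, 4 libraries each). The labels state neither the age of the rats, nor the time at which control skin was taken, nor whether the 4 libraries of a group are separate animals, so a p-value here speaks of library spread alone, some of which could be technical. Circles were enriched on a plasmid kit column, treated with exonuclease, purified on beads and built into libraries from 50 ng with a transposase kit. Counts and positions of circles hold no tissue markers, so the label of skin could not be checked from these values.

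Circular DNA is found in the nuclei of normal tissues. Most of it is short, lacks a centromere and any complete gene, and comes from scattered places in the genome, and short circles in blood plasma and tissues of mice and humans often have lengths near those of DNA wound on nucleosomes. Much longer circles, best known from tumours, can carry whole genes. The mitochondrial genome, a circle of its own in every cell type with mitochondria, passes the same enrichment.

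The 4 control libraries held 35525, 119480, 197061 and 110227 supporting reads for replicates 1 to 4. They listed 4795, 9445, 10389 and 3601 eccDNA, and 26, 42, 49 and 33 ecDNA. Replicate 4 lay at the end of the range in several measures before any comparison. It had the fewest circles but the most reads per circle, 28.7 against 7.19, 12.4 and 18.6 in replicates 1 to 3. Only 6.30% of its circles rested on 1 read, against 29.2%, 12.5% and 8.88%, where replicate 1 lay farthest from the rest. The differences from irradiated skin that passed are therefore also given without it. Total sequencing depth is unknown, reads carry no molecular identifiers, and confidence intervals therefore cover counting error only. The widest 95% Wilson interval of a class share in a control library reached 1.61 percentage points to either side.

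Control circles were short, and in replicates 1 to 3 their lengths fell into a pair of peaks. The median length was 350, 339, 351 and 307 bp in replicates 1 to 4, or 337 ± 20.6 bp (mean ± SD, n = 4). The first peak of the length profile lay at 205, 203, 198 and 193 bp, and the next at 366, 359, 362 and 370 bp. Each position is the highest point of the smoothed profile within a range set beforehand, so every library has both whatever its profile. In replicate 4 the profile was low, with 1.42% of circles in the 5-bp bin from 140 bp. It held 1.72% in the bin from 190 bp and 1.44% in that from 365 bp. The positions therefore do not show that replicate 4 had both peaks. Circles of 330 to under 420 bp were 33.2%, 35.1% and 44.6% of eccDNA in replicates 1 to 3 and 16.1% in replicate 4. Circles of 150 to under 250 bp were 22.6%, 27.6%, 25.2% and 24.9%, so this class varied little. Replicate 4 held more of the shortest circles, with 14.8% under 150 bp against 6.17% to 8.97% in replicates 1 to 3, and more of 420 to under 1000 bp, with 22.2% against 11.3% to 17.2%. Circles of 1000 bp or more were 6.13%, 4.36%, 3.75% and 8.36%.

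**Figure D1:**
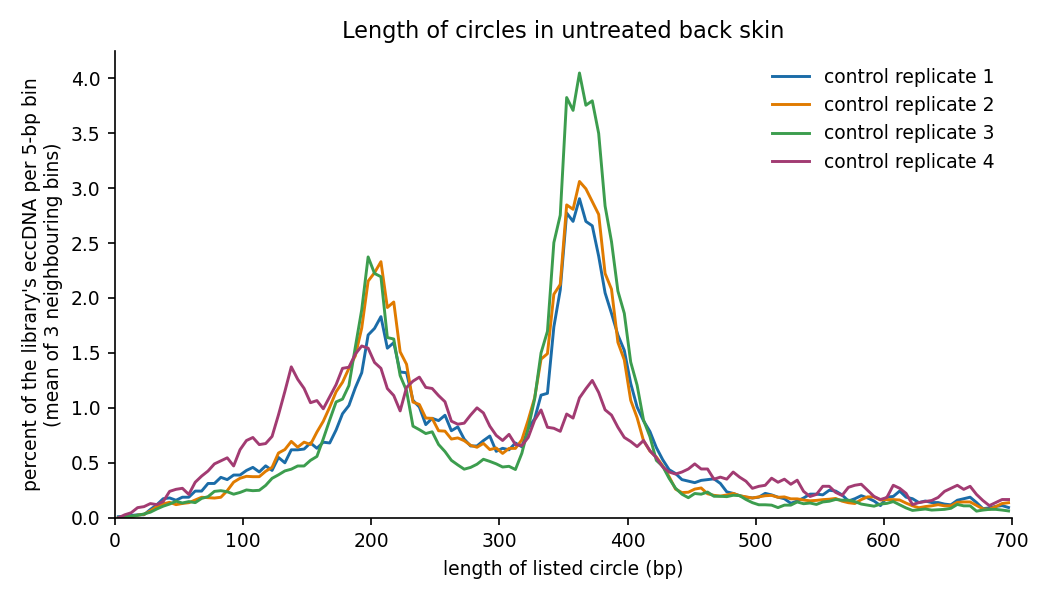
Length of listed eccDNA (bp, up to 700) against the percent of each library's eccDNA per bin of 5 bp, as the mean of 3 neighbouring bins, with 1 line for each of the 4 control libraries. Within the ranges searched, the highest points of the 4 profiles lie at 193 to 205 and 359 to 370 bp. The line of replicate 4 is low there, with 16.1% of its circles at 330 to under 420 bp.

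Junctions of short and long circles were supported by different kinds of reads. Split reads, which cross the junction itself, made up 93.5% of the supporting reads of calls under 150 bp and 90.2% at 150 to under 250 bp. Their share was 67.2% at 250 to under 330 bp and higher, at 79.1%, at 330 to under 420 bp. It was 37.0% at 420 to under 1000 bp, 19.4% at 1000 to under 10000 bp and 11.3% at 10000 bp or more, where read pairs that face outward made up the rest. The deposited label hconf, which the tables do not define, was given to 36.9%, 38.3% and 37.1% of circles in replicates 1 to 3 and to 47.1% in replicate 4. Over all control entries it was most common at 150 to under 250 bp (53.2%) and rare at 330 to under 420 bp (20.1%) and at 10000 bp or more (4.35%).

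Most control circles lay between genes or in introns. Intergenic entries were 58.6%, 59.5%, 60.4% and 59.0% of eccDNA in replicates 1 to 4, and intronic entries 34.1%, 33.4%, 32.6% and 35.1%. Exonic entries were 3.73%, 3.74% and 3.81% in replicates 1 to 3 and 2.36% in replicate 4 (95% Wilson interval 1.91% to 2.91%). Exonic entries thus differed between replicate 4 and the other three by more than counting error. Over all control entries the exonic share changed with length, from 1.81% under 150 bp to 4.45% at 330 to under 420 bp and 23.9% of the 138 entries of 10000 bp or more. Entries in the 2 kb upstream of a gene were 2.19%, 1.73%, 1.79% and 1.89%, and those in the 2 kb downstream 1.44%, 1.62%, 1.36% and 1.67%.

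Upstream circles numbered 476 entries beside 472 genes, and 9 of them were found in 3 control libraries and 0 in all 4. Of these 9, 4 are given, chosen by the role of their gene and after their values were seen. The others lay upstream of Cby2, Crygc, AABR07044583.1, a gene without a symbol, and Dnajc9 with Mrps16. The 4 therefore do not stand for the 9 as a set. The circle upstream of Cers3, a ceramide synthase needed for the epidermal water barrier, lay at chr1:127646463-127646883 (rn6) with 17, 0, 24 and 24 reads in replicates 1 to 4. The circle upstream of Gpam, a mitochondrial enzyme of the first step of triglyceride synthesis, lay at chr1:275908644-275910291 with 0, 42, 24 and 38 reads. The circle upstream of Fmod, the collagen-binding proteoglycan fibromodulin of dermis and tendon, lay at chr13:50872450-50872933 with 28, 22, 18 and 0 reads. The circle upstream of Aldh2, a mitochondrial aldehyde dehydrogenase, lay at chr12:40464711-40465041 with 2, 0, 5 and 25 reads, and it was in no irradiated library, while those of Cers3, Gpam and Fmod were in 6, 4 and 2 of the 8. The calls of single control libraries within these entries differed in length, from 251 to 322 bp at Cers3, 850 to 989 bp at Gpam and 263 to 444 bp at Fmod, so the circles shared a place and not their ends.

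The promoters beside 3 of these recurrent upstream circles are printed from RefSeq (build GRCr8, 250 bases before to 50 bases after the gene start, 5′ to 3′ on the gene's strand), since they are the known starts of genes with a role in skin or fat next to which control circles recurred. RefSeq promoters could be matched for 252 of the 472 genes. The files use build rn6, so these letters show the neighbouring promoter and not the circle itself. Capitals mark each CG, the site of DNA methylation, which reads the same on both strands.
Cers3 (plus strand): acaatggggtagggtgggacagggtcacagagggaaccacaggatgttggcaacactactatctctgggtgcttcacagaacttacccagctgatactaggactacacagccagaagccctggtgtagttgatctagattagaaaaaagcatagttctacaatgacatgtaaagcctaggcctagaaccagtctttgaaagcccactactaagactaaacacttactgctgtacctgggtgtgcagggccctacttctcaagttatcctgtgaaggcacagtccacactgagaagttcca
Gpam (minus strand): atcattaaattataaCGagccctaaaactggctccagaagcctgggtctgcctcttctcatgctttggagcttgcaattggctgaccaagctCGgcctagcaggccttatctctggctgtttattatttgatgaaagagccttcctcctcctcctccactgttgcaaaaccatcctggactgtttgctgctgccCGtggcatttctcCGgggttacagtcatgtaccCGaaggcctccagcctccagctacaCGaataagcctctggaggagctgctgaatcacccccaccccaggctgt
Fmod (plus strand): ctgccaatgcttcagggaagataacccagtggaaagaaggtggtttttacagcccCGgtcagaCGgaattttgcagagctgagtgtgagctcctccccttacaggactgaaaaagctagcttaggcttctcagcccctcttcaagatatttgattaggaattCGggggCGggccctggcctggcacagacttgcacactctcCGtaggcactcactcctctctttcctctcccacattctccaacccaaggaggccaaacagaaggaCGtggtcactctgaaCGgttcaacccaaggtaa
The Cers3 promoter held 0 CG, that of Gpam 6 and that of Fmod 7, and the other matched promoters beside the 9 recurrent circles, of Cby2, Crygc and Dnajc9, held 3, 12 and 25. The median was 7 over all 33469 promoters of the table. Too few of the 472 genes were matched to compare them as a set. The letters TATAAA, searched on both strands, are in none of these 6 windows and in 14.2% of all promoters of the table.

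Chromosome 12 carried the most circles for its length. Its density was 1.97 ± 0.392 times the library's own density over the whole genome (SD, n = 4), with 3.30, 6.39, 5.84 and 3.24 circles per Mb in replicates 1 to 4. Without replicate 4 it was 1.79 times. Chromosome 20 (1.34 ± 0.107), chromosome 19 (1.29 ± 0.0851), chromosome 10 (1.26 ± 0.0867) and chromosome 17 (1.18 ± 0.0618) also lay above it in all 4 libraries, as did chromosomes 16 and 9 by a small margin. Chromosomes 2, 4, 11, X and Y lay below it in all 4, with the X chromosome at 0.540 ± 0.0402. The Y chromosome held 11 entries, and the labels do not state the sex of the rats. Across the 20 autosomes, relative density and the number of genes per Mb had a Pearson r of 0.727 and a Spearman coefficient of 0.681 (r = 0.718 without chromosome 12), and r within single libraries ran from 0.686 to 0.744. Genes were counted from circles of the irradiated libraries, and both measures are divided by the same chromosome span, which runs to the last listed circle.

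**Figure D2:**
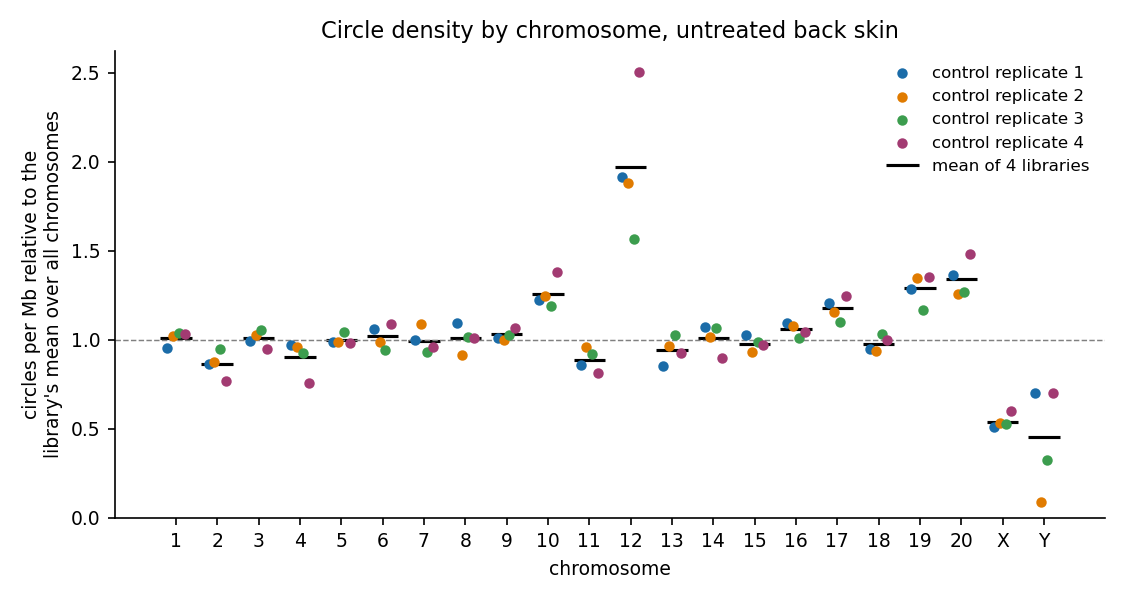
Circles per Mb on each chromosome relative to the library's density over the whole genome, with a point for each of the 4 control libraries, a bar for their mean and a dashed line at 1. Chromosome 12 lies highest, with a mean of 1.97, and the X chromosome at 0.540 lies below 1 in every library.

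Local hot spots were few. In 2793 windows of 1 Mb the median was 8 control entries, 24 windows held none, and the 22 windows with 30 or more held 3.10% of all entries. The densest window lay on the X chromosome from 63 to 64 Mb, with 63 entries, most of them in Apoo. A window on chromosome 1 from 148 to 149 Mb held 50, a window on chromosome 1 from 39 to 40 Mb held 46, and a window on chromosome 12 from 22 to 23 Mb held 39. Circles in these windows came from all 4 libraries, with 6, 22, 27 and 22 in the X chromosome window for replicates 1 to 4.

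Control circles touched the exons or introns of 5275 genes, of the 14890 genes with such a circle in any library. A single entry was all that 62.2% of these genes had, 254 genes had circles in all 4 control libraries, and 34 had 10 or more entries. Exonic circles fell on 966 genes. The 12 genes with most entries are described next, with the stretch over which the circles of all libraries in that gene were spread as a lower bound of its annotated length.

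Mycbp2, which encodes a large ubiquitin ligase of neurons, led with 55 entries, and 11, 20, 25 and 3 circles in replicates 1 to 4. Its annotated circles stretched over 6300 kb, and only 2 of the 55 entries were found in more than 1 control library. An entry of all 4 control libraries is listed under both Mycbp2 and Obi1. The count follows the deposited annotation, and whether all of these entries lie in Mycbp2 itself was not checked against a gene model. Apoo, which encodes a subunit of the complex that shapes the mitochondrial inner membrane, had 53 entries within 91.3 kb, with 5, 20, 21 and 19 circles. Of these, 9 were found in at least 2 control libraries, 18 in irradiated skin, and their median length was 671 bp. The gene listed as AABR07040864.1 had 20 entries within 30.9 kb of the X chromosome, with 0, 10, 8 and 9 circles. Circles in Apoo and in AABR07040864.1 were therefore dense for the length covered, and those of Mycbp2 were spread thinly over a very long stretch.

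Other genes with many circles also covered long stretches. Rbms3, an RNA-binding protein, had 24 entries over 973 kb, Camta1, a calmodulin-binding transcription factor, 19 over 864 kb, and Galnt17, of the family that starts mucin-type glycosylation, 16 over 883 kb. Dmd, which encodes dystrophin, had 15 entries over 2099 kb with 2, 6, 3 and 5 circles in replicates 1 to 4. St6galnac3, a sialyltransferase, had 21 over 507 kb. Ulk4, a kinase-like protein, and Ttc28, a tetratricopeptide repeat protein, had 14 each, over 275 and 306 kb. Eya2, a transcriptional coactivator of the eyes absent family, had 14 over 123 kb with 5, 7, 4 and 2 circles. Ighm, annotated as the immunoglobulin mu heavy chain, had 22 entries over 500.1 kb with 3, 10, 7 and 7 circles. Each of these genes had circles in all 4 control libraries.

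Genes of skin and of other tissues both carried control circles. The lists are counted over those of their genes that had a circle in the exons or introns in any of the 12 libraries, and the lists themselves held 22 to 42 symbols, of which 16 to 35 had such a circle. Among all genes with a circle in any library, 35.4% had a control circle and the median was 0 entries. Of the long neuronal genes, a list chosen for length and not for a role in skin, 30 of 31 had a control circle, with a median of 4 entries and a median stretch of 477 kb against 11.3 kb for all genes. Cdh13, an atypical cadherin, led it with 12 entries, and Nrxn3, a presynaptic adhesion protein, and Grm8, a glutamate receptor, had 10 each. Skeletal muscle genes had a control circle in 13 of 21 members, with Dmd first and then Trdn, a protein of the calcium release complex (5 entries), and Neb, the thin filament protein nebulin (4). Adipocyte genes had one in 11 of 16, with 4 entries each in Acaca, an enzyme of fatty acid synthesis, and Ebf1, a transcription factor of fat and B cells. Immune cell genes had one in 15 of 25, with 5 entries each behind Ighm in Prkcq, a kinase of T cell signalling, and in Vav3. Of the dermal matrix genes 17 of 35 had one, of the epidermal keratinocyte genes 13 of 27 and of the hair follicle and sebaceous gland genes 11 of 27. Melanocyte and Schwann cell genes had a control circle in 5 of 16 members, led by Mitf, the transcription factor of melanocytes, with 5 entries, DNA repair genes in 14 of 34 and genes of growth factor receptors and oncogenes in 14 of 27. These counts are descriptions with no test, and the lists differ in median stretch, from 8.32 kb in the hair follicle list to 84.9 kb in the adipocyte list besides the neuronal one.

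A few short genes of the epidermis and the hair follicle had circles in their exons. Lor, which encodes loricrin of the cornified envelope, had 5 entries within 1.03 kb, all 5 exonic, with 2, 2, 1 and 1 circles in replicates 1 to 4. Tchh, which encodes trichohyalin of the inner root sheath, had 6 entries within 3.08 kb, all 6 exonic, with 3, 2, 2 and 1 circles, and 2 of them were in more than 1 control library. Krt14, a keratin of basal keratinocytes, had 5 entries within 41.5 kb, 2 of them exonic, with 0, 2, 2 and 2 circles. Krt5, its partner keratin, had 6 within 130.4 kb with 0 in exons. The stretches of Krt14 and Krt5 were long beside those of Lor and Tchh. Whether all of their entries lie within the keratin genes themselves was not checked against a gene model. In the dermal list Col4a1, a basement membrane collagen, had 3 intronic entries and 1 circle in every library, Pdgfrb, a receptor of pericytes and fibroblasts, had 3, and Col5a1, a fibrillar collagen, had 2, both from replicate 2. Among repair genes Msh3, of mismatch repair, had 6 entries, and Xrcc4, of end joining, and Wrn, a helicase of the RecQ family, had 4 each. The receptor tyrosine kinase genes Alk, Ntrk2 and Ntrk3 had 6, 5 and 5.

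Nearly all control circles were private to a library. Of the 25632 eccDNA, 23680 were in 1 control library (92.4%), 1426 in 2, 406 in 3 and 120 in all 4. Recurrent circles were longer. The median listed length was 337, 412, 557 and 840.5 bp for circles in 1, 2, 3 and 4 control libraries, and entries of 1000 bp or more were 2.42%, 12.3%, 23.2% and 40%. A listed entry runs from the outermost start to the outermost end of all calls merged into it, which lengthens recurrent entries. The libraries' own calls within them had median lengths of 334, 358, 438 and 587 bp, so the order held for own lengths too. Membership in 2, 3 or 4 libraries still rests on the merging of calls. Of control calls in entries of 2 or more control libraries, 10.4% had identical ends in another control library. A reciprocal overlap of at least 90% was reached by 37.4%, and the lowest best overlap was 21.8%. The part of merging in this order was not tested. Exonic entries were 3.69%, 3.02%, 3.45% and 2.5%, and intronic entries 32.9%, 36.3%, 36.0% and 39.2%.

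The share of a library's circles found again in another control library was higher for longer circles. It was 11.4% ± 2.03 under 150 bp (SD, n = 4), 8.79% ± 4.14 at 150 to under 250 bp, 19.4% ± 4.91 at 250 to under 330 bp and 10.9% ± 10.1 at 330 to under 420 bp. Longer classes stood higher, with 42.6% ± 4.43 at 420 to under 1000 bp, 56.8% ± 6.30 at 1000 to under 10000 bp and 68.5% ± 3.41 at 10000 bp or more. Every library's value in these longer classes, from 39.5% upward, lay above every value in the shorter classes, where the highest was 26.6%. By the length of a library's own calls these 3 shares were 41.3%, 52.0% and 67.5%, with sharing still taken from the merged entries. Circles of both length peaks, from 150 to under 250 and from 330 to under 420 bp, recurred least in replicates 1 to 3, and the wide spread at 330 to under 420 bp came from replicate 4, with 25.9% against 6.92%, 6.63% and 4.08%.

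**Figure D3:**
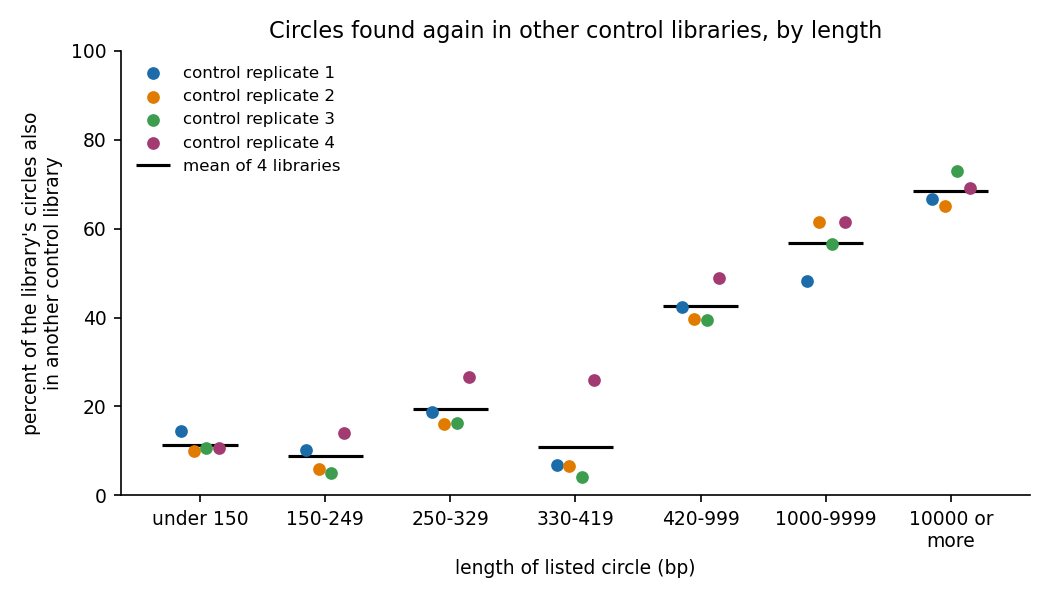
Percent of a library's eccDNA also listed in another control library (y axis) by length class of the listed circle in bp (x axis), with a point for each of the 4 control libraries and a bar for their mean. The 3 classes from 420 bp upward lie between 39.5% and 72.9%, above all points of the shorter classes.

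Better supported circles recurred more often. Among entries whose highest control library had 2 to 4 reads, 1.02% were in more than 1 control library, against 3.95% at 5 to 9 reads, 12.8% at 10 to 49 reads and 44.8% at 50 or more. An entry of several libraries takes the highest of several counts, which by itself moves it toward more reads. The part of this in the rise was not tested. Private circles of replicate 4 had a median of 14 reads, and those of replicates 1 to 3 had 2, 5 and 9, so private circles of replicate 4 had more support than shared circles of replicates 1 and 2, with medians of 7 and 13. The circles shared with another control library held 57.6%, 42.0%, 32.2% and 43.5% of the eccDNA reads of replicates 1 to 4. Presence in irradiated skin went along with recurrence in control skin, with 11.2%, 56.2%, 84.7% and 95% of circles in 1, 2, 3 and 4 control libraries also listed in an irradiated library. In all, 15.3% of the 25632 control eccDNA were also in an irradiated library, 21714 were in none, and 19 were in all 8. Circles of irradiated libraries were mostly private too, with 8.91% ± 3.69 of them also listed in another library (SD, n = 8). Absence from irradiated skin therefore does not mark a circle as specific to control skin.

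The 120 circles of all 4 control libraries comprised the mitochondrial genome and 119 nuclear circles. By annotation 67 were intergenic, 47 intronic, 3 exonic, 3 downstream and 0 upstream of a gene. At least 5 reads in every control library supported 103 of them, and at least 10 reads supported 74. Their ends mostly varied between libraries, with a median distance of 131 bp between the outermost starts and 144 bp between the outermost ends. In 7 circles all 4 libraries gave identical ends, in 24 at least 2 libraries did, and in 16 both ends lay within 10 bp. In 29 circles a library held several calls inside the entry.

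The mitochondrial genome, listed from base 1 to base 16311, had 2288, 889, 1204 and 525 reads in replicates 1 to 4, which was 6.63% of the eccDNA reads of replicate 1 and 0.509% to 0.761% in the others. The 6 nuclear circles with identical ends in all 4 libraries were also singled out after their values were seen. Of these, an intergenic circle at chr1:180782889-180783995 (rn6) had 478, 686, 1849 and 446 reads. A circle listed at 61 bp, chr18:4696251-4696311, and called at 54 bp in each control library had 568, 227, 273 and 155 reads and was listed in all 8 irradiated libraries. A circle of 385 bp at chr3:32684-33068 had 604, 229, 193 and 34 reads. Circles of 39 bp in an intron of Polk, a translesion DNA polymerase, and of 59 bp in an intron of Yaf2, a partner of the YY1 factor, had at least 24 and 8 reads in every control library, and an intergenic circle of 180 bp on chromosome 1 had at least 7. These 6 circles included 3 shorter than 100 bp and ended at the same base in every control library.

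Other well-supported shared circles kept their place but not their ends. A circle in an intron of Arhgef7 had 132, 85, 105 and 245 reads in replicates 1 to 4, with calls of 1768 to 2789 bp. A circle in an intron of Mipep, the mitochondrial intermediate peptidase, had 196, 60, 80 and 105 reads. It had 6 different control calls of 980 to 2331 bp and was listed in all 8 irradiated libraries. A circle in an intron of Cnga3, a cone photoreceptor channel, had 80, 102, 120 and 57 reads with calls of 591 to 892 bp. An intergenic circle on chromosome 13, listed at 35286 bp, had 85, 162, 655 and 204 reads, and its calls ran from 31112 to 32602 bp. Intergenic circles of 2412 and 1140 bp on chromosome 10 had at least 85 and 66 reads in every control library, those of 3537 and 888 bp on chromosome 7 at least 72 and 49, and that of 2112 bp on chromosome 1 at least 48. Replicate 1, the library with fewest reads in all, had the most of the 4 for the Mipep circle, the circle of 3537 bp, the circle of 61 bp and the mitochondrial genome.

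**Figure D4:**
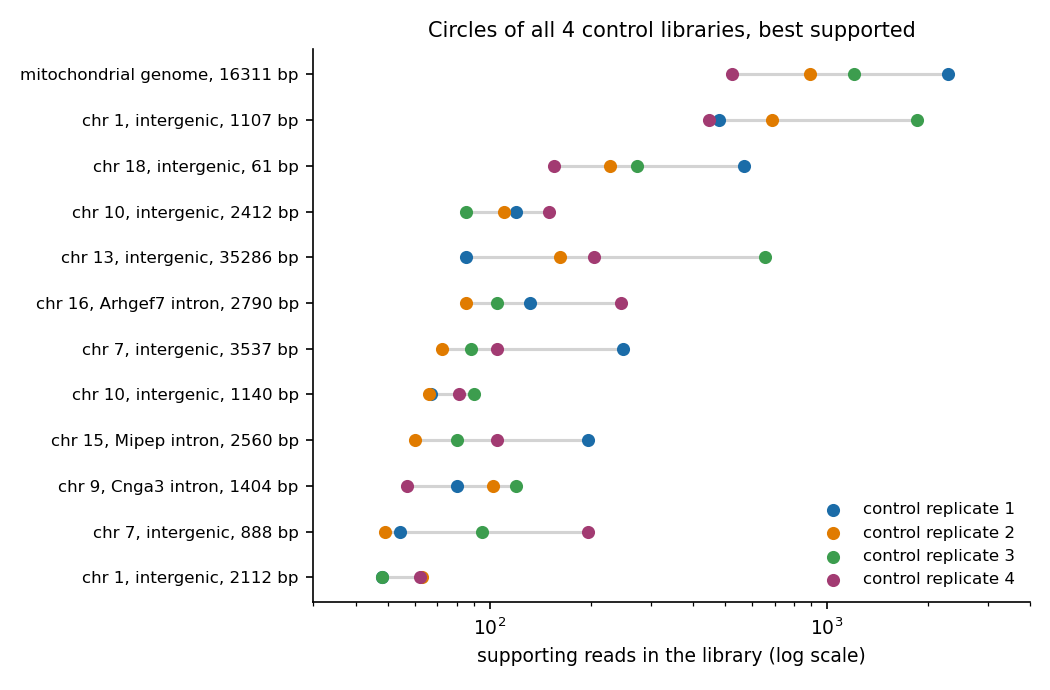
Supporting reads on a log scale for the 12 circles of all 4 control libraries whose lowest library had the most reads, with a point for each control library and a grey line over their range. The mitochondrial genome leads with 525 to 2288 reads, and the other 11 circles had at least 48 reads in every library.

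The best supported control circle, named after its reads were seen, was not listed in replicate 1. It lay between genes at chr3:41542-41932, 391 bp long, with 0, 9502, 5451 and 4110 reads in replicates 1 to 4, and was listed in 1 irradiated library. Of the 12 eccDNA with most control reads, 4 lay within a stretch of 1579 kb at chr1:180492395-182071383, which was singled out after its values were seen. The stretch held 39 control entries with a median length of 825 bp. Entries there held 1.65%, 2.42%, 4.04% and 1.46% of the eccDNA reads of replicates 1 to 4, and 0.146% to 1.55% in irradiated libraries. The 5 longest control eccDNA ran from 83706 to 98697 bp and all had the label lconf. The longest, over exons of Slc44a5, a choline transporter-like protein, had 0, 52, 72 and 0 reads and was in 6 irradiated libraries. A circle of 94302 bp on chromosome 13 had 0, 598, 560 and 304 reads, that of 95613 bp at the edge of the chromosome 1 stretch had 1520 reads, all in replicate 3, and those of 94200 bp over AABR07066379.1 and 83706 bp on the X chromosome had 8 reads in replicate 2 and 1 read in replicate 1.

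The 85 ecDNA of control skin had a median length of 642 kb, from 101 to 9067 kb, and 30 were of 1 Mb or more. They took 3.22% of the control supporting reads. A single control library held 47 of them, 19 were in 2, 11 in 3 and 8 in all 4, and 57 were also listed in irradiated skin. Exons were touched by 69, with a median of 4 genes for all 85 and at most 195, and 19 lay on chromosome 1. Their listed depth was low, with a median of 5.86 and 54 of the 85 under 10, and these entries rest on thin coverage.

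The same stretch of chromosome 1 led the ecDNA by support. A pair of entries with the same coordinates, chr1:180493000-181352559, and no annotated gene had 56, 20, 1198 and 2542 reads in replicates 1 to 4 for the first and 18, 160, 1198 and 128 for the second, at a median depth of 2986. An overlapping entry at chr1:180492395-182071383 had 120, 444, 30 and 270 reads. These 3 overlapping entries are counted separately among the 85 ecDNA and among the 8 of all 4 control libraries. An entry at chr2:79795511-80437265 with 4 genes had 0, 96, 206 and 1404 reads, an entry at chr2:159003948-161018557 with 2 genes had 12, 165, 48 and 1194, and depth over these was 16.5 and 18.8. By length the 5 longest entries ran from 6432 to 9067 kb. The longest, on chromosome 19 with 127 genes, had 56 reads, all in replicate 3. Those of 8675 kb on chromosome 2, 7459 kb on chromosome 13 and 6833 kb on chromosome 10 had 2, 3 and 1 reads, each in a single control library, and that of 6432 kb on the X chromosome had 5 reads in replicate 3 and 30 in replicate 4.

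Control skin differed from irradiated skin in most measures of the repertoire. The comparison sets the 4 control libraries against the 8 irradiated libraries of both doses by exact permutation of the library labels, two-sided, whose smallest p is 0.00404, adjusted by Benjamini-Hochberg over 17 measures. Of the 17 measures 13 passed an adjusted p of 0.05 (76.5%), with 9 higher (52.9%) and 4 lower (23.5%) in control skin. The class of 330 to under 420 bp, with the control values above, ran from 60.5% to 70.3% in irradiated libraries (median 68.0%). Its share was lower in every control library, and each of the other 5 length classes held a larger share in every control library than in any irradiated library (exact permutation, adjusted p = 0.00624 for each of the 6 classes). Irradiated libraries had 10.4% to 19.1% at 150 to under 250 bp, 4.86% to 6.84% at 250 to under 330 bp and 1.05% to 3.51% at 1000 bp or more. The difference at 150 to under 250 bp, 9.48 points, did not pass among circles of 5 or more reads (5.53 points, exact adjusted p = 0.185) and turned to -0.260 points among circles with the label hconf (exact adjusted p = 0.974). Nor did the difference of median length, -25.8 bp, pass at 5 reads or with hconf (exact adjusted p = 0.255 and 0.0687). Since the shares of a library sum to the whole, a lower share of 1 class raises the others.

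Annotation and support differed too. Exonic circles were 3.41% ± 0.701 of control eccDNA (SD, n = 4) and 4.68% ± 0.384 of irradiated eccDNA (n = 8, exact permutation, adjusted p = 0.00624), and every control library lay below every irradiated library, though replicate 3 at 3.81% was close to the lowest at 3.85%. Intronic circles were 33.8% ± 1.05 against 32.1% ± 0.517 with the same exact adjusted p of 0.00624, a small difference of 1.76 percentage points that was 1.33 without replicate 4 and did not pass among circles with the label hconf (exact adjusted p = 0.0687). Intergenic and downstream shares did not pass (exact permutation, adjusted p = 0.188 and 0.715). The label hconf was given to 39.9% ± 4.87 against 26.7% ± 1.68, and circles also listed in another library were 28.7% ± 10.1 against 8.91% ± 3.69 (exact permutation, adjusted p = 0.00624 for both). Without replicate 4 the differences were 10.7 in place of 13.1 points for hconf and 14.0 in place of 19.8 points for circles in another library (exact adjusted p = 0.0187 for both). The number of eccDNA, 7058 ± 3360 against 26828 ± 13345, passed with an exact adjusted p of 0.0172, but not without control replicate 1 or without control replicate 4 (0.0515 for both) or at 5 reads (0.0562). Upstream circles, 1.90% ± 0.205 against 1.67% ± 0.0710, passed at 0.0211 and not without either of these libraries (exact permutation, adjusted p = 0.0634 for both) or at 5 reads (0.425). Without replicate 4, the difference at 330 to under 420 bp was -29.2 in place of -34.6 percentage points, that of exonic circles was -0.919 in place of -1.27, and both, like median length and the other length classes, passed with an exact adjusted p of 0.0187.

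**Figure D5:**
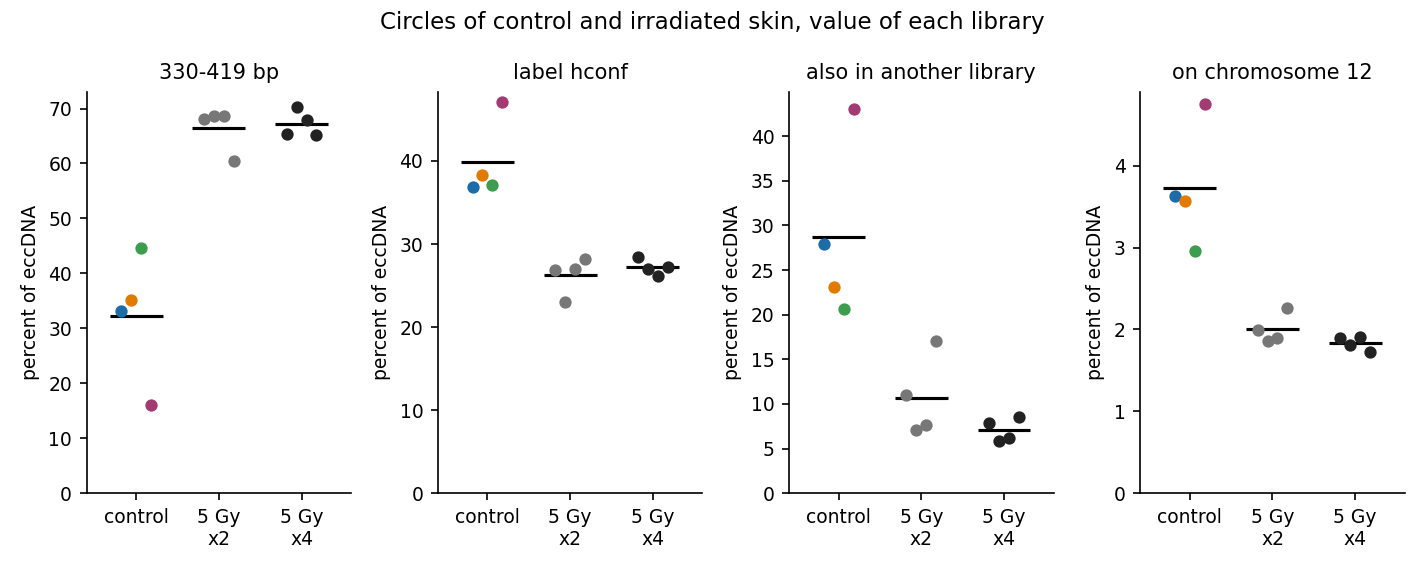
Percent of each library's eccDNA at 330 to under 420 bp, with the label hconf, also listed in another library and on chromosome 12, from left to right, with a point for each library of control, 5 Gy x2 and 5 Gy x4 skin and a bar for each group's mean. Control replicate 4 lies farthest from the irradiated libraries in all 4 panels, and the control and irradiated points do not overlap.

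By chromosome, 7 of 22 shares passed (31.8%), with 4 higher (18.2%) and 3 lower (13.6%) in control skin. Chromosome 12 held 3.63%, 3.57%, 2.96% and 4.75% of control eccDNA and 1.73% to 2.26% of irradiated eccDNA (median 1.90%), a difference of 1.81 percentage points (exact permutation, adjusted p = 0.0178). Chromosomes 19, 20 and X were also higher in control skin, by 0.472, 0.528 and 0.368 points (exact permutation, adjusted p = 0.0178, 0.0178 and 0.0254). Chromosomes 2, 4 and 11 were lower, by differences of -1.10, -0.904 and -0.476 points (exact permutation, adjusted p = 0.0254, 0.0178 and 0.0178). Without control replicate 4 none of the 22 passed, the smallest exact adjusted p being 0.0533, and chromosome 12 differed by 1.47 points. Chromosomes 4, 11, 12, 19 and 20 each had an exact permutation p of 0.0121 there, the smallest that so few libraries allow. The loss of these calls therefore does not show that their differences rest on replicate 4. Among circles with the label hconf the difference of the X chromosome turned to -0.256 points.

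The comparison of single genes had little power on simulated counts. There it recovered 0 of 90 genes changed 2-fold and 36 of 95 changed 4-fold, and it called 10 of 624 unchanged genes. The simulation used a dispersion that was set and not estimated from these libraries, with all changes upward in control. Power in the data themselves could therefore differ. In edgeR's quasi-likelihood test on circles per gene, 5 of 673 genes with at least 24 circles over the 12 libraries passed an adjusted p of 0.05 (0.743%), 3 of them higher in control skin (0.446%) and 2 lower (0.297%) under TMM scaling. AABR07040864.1 had 0, 2.74, 2.05 and 6.33 circles per 1000 genic circles in control replicates 1 to 4 and 0.0561 to 1.23 in irradiated libraries (log2 fold change 2.30 ± 0.45 SE, edgeR adjusted p = 2.17e-04), and the groups overlapped through replicate 1. Apoo had 2.64, 5.47, 5.38 and 13.4 per 1000 against 0.702 to 6.96 (log2 fold change 1.5 ± 0.33 SE, edgeR adjusted p = 0.00158), also with overlap. Eya2 had 2.64, 1.92, 1.02 and 1.41 per 1000 against 0 to 0.587, with no overlap (log2 fold change 2.27 ± 0.54 SE, edgeR adjusted p = 0.00542). Its 18 control and 18 irradiated circles reached the minimum of 24 only together, so the filter leaned on the group where it was high. The Eya2 call is therefore given as a value and supports nothing further.

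The 2 genes called lower in control skin carried few or no control circles, and both reached the minimum of 24 circles through the irradiated libraries, so their calls are given as values and support nothing further. Luzp2, a leucine zipper protein of the nervous system, had 1, 1, 2 and 0 control circles and 4 to 26 in each irradiated library, 113 in all. AABR07035916.1 had 0 circles among 10877 genic control circles and 54 among 81646 irradiated circles, and is therefore no gene of the control repertoire. The median log2 fold change of all tested genes was -0.68 with TMM factors and -0.15 with library size alone in edgeR, where 16 genes were called higher and 1 lower. DESeq2, which differs from edgeR in its test as well as its scaling, gave a median of -0.94 and called 0 higher and 15 lower. The calls for single genes were not stable. Eya2 did not pass without control replicate 1 or 2 (edgeR adjusted p = 0.0635 and 0.125), nor with genes of 12 or more circles or with no filter (edgeR adjusted p = 0.0968 and 0.414). AABR07040864.1 and Apoo passed whichever single library was left out, but neither passed with DESeq2 (adjusted p = 0.0570 and 0.0784) or with no filter (edgeR adjusted p = 0.269 and 0.638), and Apoo did not pass with genes of 12 or more circles (edgeR adjusted p = 0.105).

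Control libraries shared circles with each other more than with irradiated libraries. Under a reciprocal overlap of 50% of the libraries' own calls, the smaller library of a control pair had on average 14.3% of its circles in the larger, with 12.4%, 11.8%, 11.8%, 9.90%, 21.7% and 18.1% for the 6 pairs. The highest values were the pairs of replicate 4 with replicates 2 and 3. Over the 32 pairs of a control with an irradiated library the mean was 7.75%, from 4.65% to 13.6%, and over pairs of irradiated libraries 3.23%. The control mean exceeded the control to irradiated mean by 6.53 percentage points (two-sided exact permutation of library labels, p = 0.00404, n = 4 and 8), and by 4.83 points without replicate 4 (exact p = 0.0121). At an overlap of 90% the means were 3.93% and 2.19% (exact permutation, p = 0.00404). The libraries differ in number of circles and in length, which move with these shares, and their part in the result was not tested.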

How the data were processed

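Circular DNA was enriched from back skin and sequenced in 12 libraries. BWA, Picard and bedtools with build rn6 are named in the submitters' processing notes, with no version. For the circle caller, the merging of calls into common entries and the labels hconf, conf and lconf no description was used here. The authors deposited, per library, whole-number counts of supporting reads for each called circle, and lists of eccDNA and ecDNA with position, annotation and label. An entry runs from the outermost start to the outermost end of its calls in all 12 libraries, checked over 228510 entries. In 227 entries with several calls of 1 library, each library's count equals its last listed call. Starts are printed counted from 1.

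A circle was counted as present with 1 or more supporting reads, and its length taken from the listed entry, with each library's own call as a check. Per-library measures were compared by two-sided exact permutation with Benjamini-Hochberg adjustment (scipy 1.17.1, pandas 2.3.3, numpy 2.4.6, Python 3.11.15), library sharing with bedtools 2.31.1, and circles per gene with edgeR 4.0.16 in R 4.3.3, for genes with 24 or more circles in all. DESeq2 1.42.0, other filters, read minimums, labels, doses and left-out libraries were alternatives. On simulated counts for the gene comparison (809 genes tested), edgeR called 36 of 95 genes changed 4-fold, 0 of 90 changed 2-fold and 10 of 624 unchanged genes.

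Genes named are the 12 with most control entries and up to 3 leading members of each list, and circles named are the 12 of all 4 libraries ranked by their lowest count, the 5 longest eccDNA, and the 5 longest and 5 best supported ecDNA. Others are said to be chosen after their values were seen. A rule on entries per length of gene was not applied, since the rn6 annotation was not used here. The members and the lists were chosen with earlier results of these data known.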

Additional observations from a re-analysis of the deposited data

Results flagged for a closer look

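In control skin, 2 of 39 sets of 4 values had a library whose gap to its nearest neighbour, as a part of the whole range, exceeded Dixon's critical value at 95%, a size that chance alone gives in about 5% of such sets. Both were control replicate 4. Its exonic share was 2.36%, against 3.73%, 3.74% and 3.81% in replicates 1 to 3. Its share of circles with the label hconf was 47.1%, against 36.9%, 38.3% and 37.1%. The exonic difference from irradiated skin was -0.919 percentage points without this library, and -1.27 with it.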

How the results depend on the processing

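Of the values that answer a comparison, 111 kept their call, stayed within the spread of libraries or, for counts, within 1.5 times under an alternative, while 23 others moved, 13 became weaker and 5 stronger. Requiring 2 or 5 reads left 22069 and 15798 control eccDNA, equal read numbers (34499 per library, chosen after seeing the data) 20933, and the label hconf 9271. With hconf alone a control library held 2735 circles with a median of 278 bp, 2.37% exonic and 35.5% intronic, 86.8% of entries were in 1 library, the shared ones had a median of 636 bp, 8 measures and 2 chromosomes passed, and the differences at 150 to under 250 bp and on chromosome X turned to -0.260 and -0.256 points. At 5 reads 9 of the 17 measures passed, without the number of eccDNA, median length, the share at 150 to under 250 bp and the upstream share, 4 chromosomes passed and 5 ecDNA were in all 4 libraries. Against 5 Gy x2 or 5 Gy x4 alone 0 chromosomes passed, where the smallest exact p is 0.0286. Genes passing numbered 17 with library size alone, 15 with DESeq2, 9 with filterByExpr (15 tested) and 1 with no filter. Leaving out single libraries gave 11 to 14 measures, 0 to 9 chromosomes (0 without control replicate 4), 2 to 24 genes (24 without 5 Gy x2 replicate 4), 16477 to 23076 entries, 179 to 268 circles shared by all remaining control libraries with medians of 659 to 724 bp, and 8 to 14 such ecDNA. Whether replicate numbers pair the libraries could not be told. Same-numbered libraries correlated at -0.114 to 0.407 over 286 windows (median 0.0137). Libraries of different number and group correlated at -0.393 to 0.250 (median 0.00186), and 5 of 12 libraries were closest to their own number. With the replicate block 0 measures and 0 chromosomes passed, since its smallest p is 0.125, while 5 genes did. No ecDNA entry has the label hconf, so that setting gave no ecDNA value. The cause of these changes was not tested beyond these settings. Total depth is unknown, and 29.2% of the circles of control replicate 1 rest on 1 read.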

Other observations

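Control circles near chromosome starts are given as values, chosen after they were seen. The first windows of 1 Mb of the 22 chromosomes held 203 control eccDNA entries, 0.792% of all, and 6.46% of the control eccDNA reads. Of these reads 72.9% lay on chromosome 3, where the best supported control circle, at chr3:41542-41932 (rn6), and a circle of all 4 libraries, at chr3:32684-33068, both lie. The first windows held 3 circles of all 4 control libraries.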
